A study of Mus musculus with 20 samples.

Results

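Brains of the mouse lines labelled J17a and J27a (the 7a lines) were compared with those labelled J17b and J27b (the 7b lines), to see which genes differed in the same way in the J1 and the J2 lines. The libraries were chosen by title: 11 of the 20 in the series, 6 from 7a lines (3 J17a, 3 J27a) and 5 from 7b lines (2 J17b, 3 J27b). The JNK gene named in the title (J1 or J2) entered the fit as a block. The difference so fitted, called the shared difference below, is a weighted average of the J1 and J2 differences, which need not be alike. All mice carry the strain label C57/Bl6J and were on normal diet, and the series presents the lines as single-isoform knockouts made to study exon usage. What the genotype codes stand for is not spelled out in the labels, which also do not say which form each line lacks, so each group goes by its label. Neither sex nor age appears in the labels. Wild type, J1 lf/lf and J2 lf/lf libraries, 3 of each, stayed out of the fit, and their levels stand beside some genes below. The labels do not tie each library to an animal of its own, so p-values rest on the spread between these libraries, which may be technical.

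Mapk8, Mapk9 and Mapk10 encode the MAP kinases JNK1, JNK2 and JNK3, which respond to stress. They are switched on by a cascade of upstream kinases and phosphorylate Jun and other transcription factors, among many substrates. In brain they are known for roles in axon and dendrite growth, in stress-induced neuronal death and, in the pituitary, in the feedback control of thyroid hormone. Mapk8 and Mapk9 each hold a pair of mutually exclusive coding exons in the kinase domain, and the names 7a and 7b refer to this choice.

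The pairs are shown here because the line names refer to them. They were found in the GENCODE vM21 annotation of mm10 as coding exons of equal length that no protein-coding transcript holds together. In Mapk8 the first exon of the pair lies at chr14:33390673-33390744 and the second at chr14:33390242-33390313, both on the minus strand. In Mapk9 they lie at chr11:49873836-49873907 and chr11:49874264-49874335 on the plus strand. Capitals mark the bases that differ between the 2 exons of a gene.
Mapk8 first exon of the pair: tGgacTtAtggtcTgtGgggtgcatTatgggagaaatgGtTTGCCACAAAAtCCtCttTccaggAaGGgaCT
Mapk8 second exon of the pair: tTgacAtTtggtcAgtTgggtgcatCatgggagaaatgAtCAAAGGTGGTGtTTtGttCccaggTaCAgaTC
Mapk9 first exon of the pair: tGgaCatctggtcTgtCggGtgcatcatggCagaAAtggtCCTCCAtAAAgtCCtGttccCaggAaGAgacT
Mapk9 second exon of the pair: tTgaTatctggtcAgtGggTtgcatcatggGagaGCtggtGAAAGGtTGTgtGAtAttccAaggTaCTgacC
Of 72 bases, 27 differed between the Mapk8 exons (62.5% identity) and 25 between the Mapk9 exons (65.28%). The first exons of Mapk8 and Mapk9 were more alike, at 81.94% identity, and so were the second exons, at 79.17%. No label says which exon is 7a, and a count per gene sums both forms, so the levels below say nothing of exon usage.

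Library totals ran from 21761943 to 30569978 estimated counts in the 11 libraries. Transcripts of brain cells were abundant in both groups: Mbp, a myelin protein of oligodendrocytes, averaged 3073 CPM in 7a and 3143 CPM in 7b (CPM, estimated counts scaled to a fixed library total with TMM factors, as for all CPM values here). A few libraries stood apart. J17b replicate 2 and J27b replicate 1 had 1382 and 1297 CPM of Ttr, the main choroid plexus transcript, against at most 616 CPM in the other 9. J27a replicate 3 held 454.8 CPM of the pituitary hormone transcript Gh, against at most 12.8 CPM elsewhere. J17a replicate 1 had 6499 CPM of the ribosomal precursor Rn45s, against 17190 CPM or more in the others and 54010 CPM in J17b replicate 2. With all 20 libraries scaled together, Rn45s stood at 3064 to 6725 CPM in the Wild type and lf/lf libraries. On that scale J17a replicate 1 had 6541 CPM and the other 7a and 7b libraries 17350 CPM or more. Whether this bears on the levels set beside Wild type or lf/lf below was not tested. Values without the 2 libraries high in Ttr stand beside some genes below. Whether results move with the level of Gh or Rn45s was not tested.

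No gene passed the threshold for a shared difference between the 7a and 7b lines. Of 15813 genes tested with edgeR's quasi-likelihood test, 0 (0%) had a Benjamini-Hochberg adjusted p under 0.05. The lowest adjusted p was 0.0778, for Dio2, and 27 genes were under 0.2. At an unadjusted p under 0.05 there were 1042 genes (6.59%), of which 545 were higher in 7a (3.45%) and 497 lower (3.14%). If p-values were uniform, 790.65 genes would lie there. DESeq2's Wald test called 38 genes, 20 higher and 18 lower in 7a, and limma on log2 TPM called 0, with 1096 genes at an unadjusted p under 0.05 at a pseudocount of 1. An edgeR fit with 4 line means, averaging the J1 and J2 differences, called 6, which were Fosl2, Ier5, Nr4a3, Dio2, Oprd1 and Mapk8, all higher in 7a. Counts of this design were simulated 3 times, with 200 changed genes each. These genes had a mean logCPM of 1 or more and changed alike in the J1 and J2 lines, and genes varied independently. The fit recovered 29.4% of changes of 1.2-fold, 80.6% of those of 1.4-fold and 98.0% of those of 2-fold. The shares hold for those settings and need not hold for the real libraries.

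The 7a minus 7b difference of the J1 lines and that of the J2 lines, which share no library, were then set side by side. Over all tested genes the median shared difference was close to 0, with 7896 positive (49.9%) and 7917 negative (50.1%). The J1 and J2 differences had the same sign in 7605 genes (48.1%). Across the 13088 genes whose mean logCPM was 1 or more their Pearson r was -0.10, a description across genes, which are not independent replicates. In 236 genes (1.49%) the 7a libraries lay all above or all below the 7b libraries within the J1 lines and, in the same direction, within the J2 lines. Of these 117 were higher in 7a (0.74%) and 119 lower (0.753%).

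**Figure D1:**
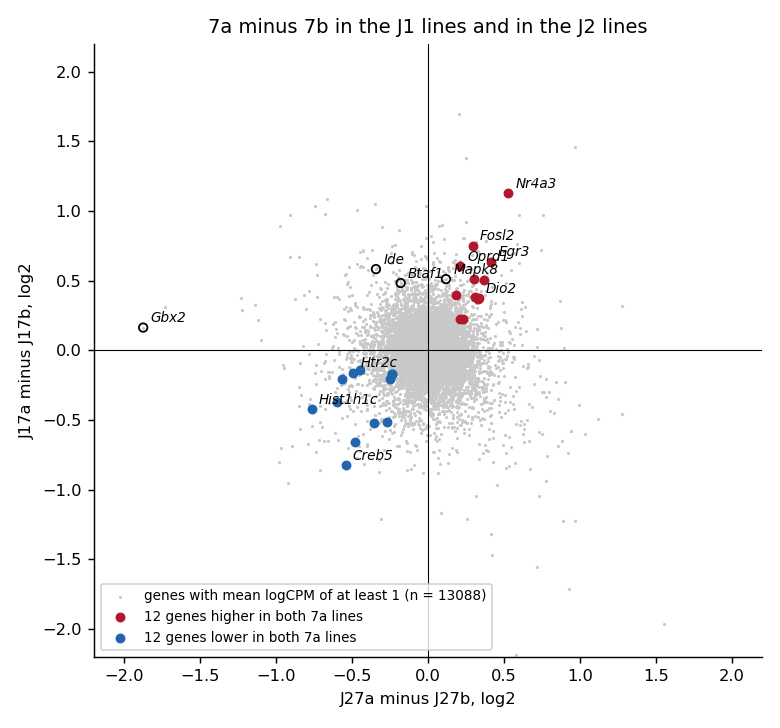
Log2 difference of 7a minus 7b in the J1 lines (vertical axis) against that in the J2 lines (horizontal axis) for 13088 genes whose mean logCPM was 1 or more; 4 genes lie outside the limits. The cloud has no diagonal trend (r = -0.10), the 12 named genes higher in 7a (red) sit in the upper right and the 12 named genes lower in 7a (blue) in the lower left, as their choice requires, and open circles mark Ide, Btaf1, Gbx2 and Mapk8.

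The JNK genes were looked at first. Mapk8 (chr14:33377898-33447158) stood at 104.9, 115.1 and 105.6 CPM in J17a and 110.7, 111.2 and 128.6 CPM in J27a, against 74.1 and 78.2 CPM in J17b and 110.1, 103.0 and 110.1 CPM in J27b. The J17b libraries were the lowest of the 11, while the lowest J27a library and the highest J27b library nearly met. The shared log2 difference was 0.29 (SE 0.07, 95% interval 0.14 to 0.44), with an adjusted p of 0.311 by edgeR. It was 0.51 in the J1 lines, where it passed the threshold (adjusted p = 0.0163), and 0.12 in the J2 lines (adjusted p = 0.761). The test of the difference between these 2 values gave an adjusted p of 0.287.

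Mapk9 (chr11:49846751-49886421) averaged 301 ± 11.3 CPM in 7a and 290 ± 21.8 CPM in 7b (SD, n = 6 and 5). Its shared log2 difference was 0.05 (95% interval -0.04 to 0.13). Within the J2 lines it was 0.11, with J27a at 289 to 303 CPM and J27b at 272 to 276 CPM. Those 2 lines did not overlap, with an adjusted p of 0.685 by edgeR. Mapk10 (chr5:102907948-103211334), the JNK gene expressed mainly in neurons, averaged 386 ± 23.0 CPM in 7a and 366 ± 9.07 CPM in 7b, with overlapping libraries and a log2 difference of 0.08. Per length, Mapk9 had the highest level of the 3, with 159 TPM in 7a and 153 TPM in 7b, followed by Mapk10 with 129 TPM in 7a and 122 TPM in 7b and Mapk8 with 47.6 TPM in 7a and 40.0 TPM in 7b. Of 17 tested kinases upstream of JNK, 12 had a positive and 5 a negative difference, with a median of 0.02. At an unadjusted p under 0.05 there was 1 member, near the 6.59% of all genes.

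**Figure D2:**
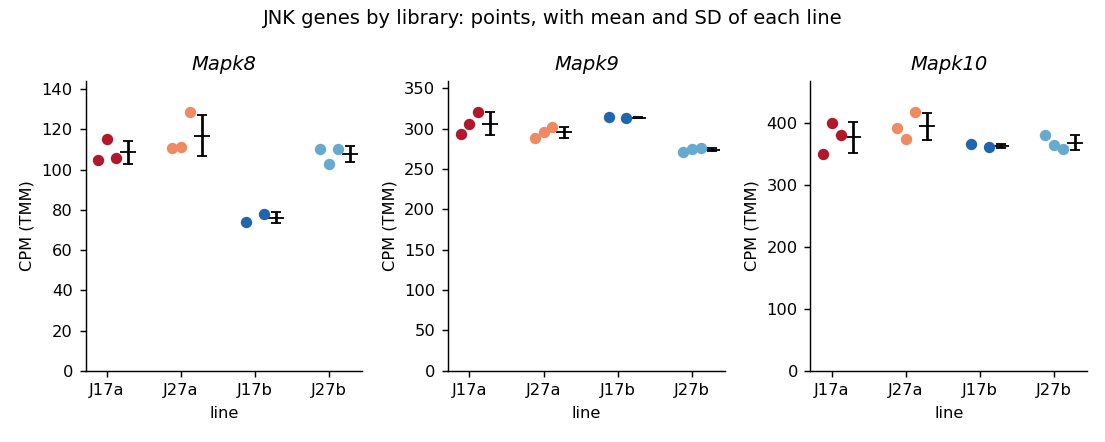
CPM of Mapk8, Mapk9 and Mapk10 in each library (points) of the J17a, J27a, J17b and J27b lines, with the mean and SD of each line in black. The Mapk8 level of the J17b libraries (74.1 and 78.2 CPM) lies below that of the other 9 libraries, and no other line stands apart as far in any of the 3 genes.

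Since no gene passed, the genes named next are those with the lowest unadjusted p among genes (mean logCPM 1 or more) whose 7a and 7b libraries did not overlap in either JNK gene, 12 in each direction. Their separation is therefore the result of the choice. Dio2 (chr12:90724552-90738438) encodes the deiodinase that makes active thyroid hormone T3, mainly in astrocytes. It stood at 97.2, 103.5 and 88.6 CPM in J17a and 98.7, 88.4 and 98.3 CPM in J27a, against 70.0 and 79.2 CPM in J17b and 73.7, 79.2 and 74.3 CPM in J27b. Every 7a library lay above every 7b library, also across the JNK genes. The log2 difference was 0.35 (SE 0.05, 95% interval 0.23 to 0.46) and nearly the same in the J1 lines (0.37) and the J2 lines (0.33). When all 20 libraries were scaled together, Dio2 averaged 96.6 CPM in 7a and 76.0 CPM in 7b, beside 75.8 ± 9.35 CPM in J1 lf/lf, 94.1 ± 11.8 CPM in J2 lf/lf and 92.6 ± 4.93 CPM in Wild type (SD, n = 3 each). The 7a mean was thus close to the Wild type level and the 7b mean below each Wild type library (88.7 to 98.2 CPM). Wild type also differed from most 7a and 7b libraries in Rn45s, as given above, and its bearing here was not tested.

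The window of 250 bases before the RefSeq start of Dio2 (GRCm38.p6, chr12:90739039-90739288, minus strand) is shown since Dio2 had the lowest p. Capitals mark the full cyclic AMP response element, TGACGTCA, the site known to bind CREB and ATF factors.
Dio2 upstream window: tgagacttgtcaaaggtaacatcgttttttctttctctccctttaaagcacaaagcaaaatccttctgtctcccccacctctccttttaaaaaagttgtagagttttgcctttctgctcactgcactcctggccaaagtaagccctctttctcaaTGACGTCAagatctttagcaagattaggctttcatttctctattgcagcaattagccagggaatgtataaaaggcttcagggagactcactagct
The full element was found on either strand in 1.55% of 32851 such RefSeq windows, and its 5-base core TGACG, which lies within the full site, in 17.8%. Counted by gene, where any window of a gene held the site, the shares of 27025 genes were 1.77% and 19.8%. The genes below were counted in the same way. Of the 12 genes higher in 7a, 8 were matched to a window and 4 of these held the core (Dio2, Nr4a3, Homer1 and Galnt9). Of the 12 genes lower in 7a, 8 were matched and 3 held it (Ucp2, Creb5 and Tmem98). The full site was found once in each direction, in Dio2 and in Creb5. Another 3 motifs were searched on both strands. The AP-1 site TGANTCA (7.82% of genes) was in 0 of the 8 higher and 2 of the 8 lower genes. The EGR site GCGNGGGCG (5.33%) was in 3 of the 8 higher and 0 of the 8 lower, and the CArG box (1.62%) in 0 of either. These are matches of letters and describe the windows.

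Nr4a3 (chr4:48045153-48086447), an orphan nuclear receptor induced by neuronal activity, had the largest difference of the 12 higher genes. It stood at 13.3, 10.03 and 15.4 CPM in J17a and 12.4, 11.6 and 10.1 CPM in J27a, against 5.91 and 5.86 CPM in J17b and 8.61, 8.04 and 6.95 CPM in J27b. Every 7a library exceeded every 7b library, and the log2 difference was 0.78 (SE 0.14, adjusted p = 0.11 by edgeR). On the scale of all 20 libraries it averaged 12.2 CPM in 7a and 7.14 CPM in 7b, and the Wild type libraries, at 15.2, 11.3 and 7.24 CPM, spanned both means. Homer1 (chr13:93299635-93405129), a scaffold protein of excitatory synapses, stood at 185.5, 188.5 and 192.3 CPM in J17a and 192.2, 166.4 and 222.8 CPM in J27a. In the 7b lines it stood at 140.1 and 149.1 CPM in J17b and 158.6, 162.3 and 148.4 CPM in J27b, again without overlap. Its log2 difference was 0.34 (SE 0.06, adjusted p = 0.11 by edgeR).

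Fosl2 (chr5:32135801-32157842), a Fos family partner of Jun in AP-1, averaged 43.7 ± 3.61 CPM in 7a and 31.3 ± 4.62 CPM in 7b (SD, n = 6 and 5). All 7a libraries (37.5 to 48.8 CPM) lay above all 7b libraries (26.6 to 36.7 CPM). The difference was 0.75 in the J1 lines, where it passed the threshold (adjusted p = 0.00824 by edgeR), and 0.29 in the J2 lines, and the test between them gave an adjusted p of 0.374. The other 8 higher genes had log2 differences between 0.22 and 0.51. They include Egr3, an activity-induced transcription factor (0.51), Adra1d, an adrenergic receptor (0.39), Oprd1, the delta opioid receptor (0.38), and Ak4, a mitochondrial adenylate kinase (0.35). Mgll, which breaks down endocannabinoids, had 186 ± 8.08 CPM in 7a and 160 ± 9.98 CPM in 7b, a log2 difference of 0.23. Banp (0.43), Fam212b (0.28) and Galnt9 (0.22) complete the 12, whose adjusted p ran up to 0.17. Annotated genes overlap Dio2, Adra1d, Mgll and Banp on the opposite strand, and whether counting used strand is not stated. Fam212b was not found under that name in the annotation, so its overlaps were not checked.

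**Figure D3:**
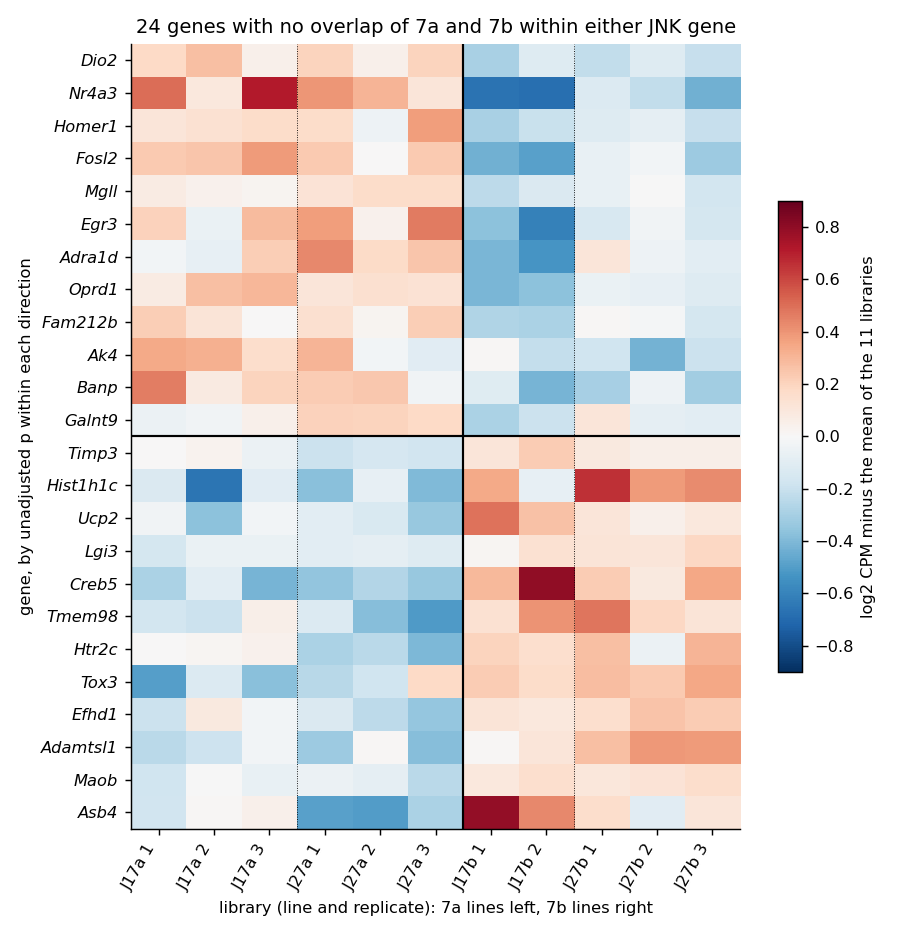
Log2 CPM minus the mean of the 11 libraries for the 24 named genes (rows, by p within each direction) in each library (columns, 7a lines left of the black line, 7b lines right of it). Within each JNK gene the 7a and 7b libraries separate for all 24 genes by choice, across the JNK genes some overlap (Egr3 had 147.9 CPM in J17a replicate 2 and 150.9 CPM in J27b replicate 2), and Hist1h1c and Asb4 are uneven within lines.

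The 12 genes lower in 7a had log2 differences from -0.67 to -0.21 and adjusted p from 0.146 to 0.418. Creb5 (chr6:53287270-53700376), a CREB and ATF family factor that binds the response element above, had the largest. It stood at 3.36, 3.83 and 3.06 CPM in J17a and 3.19, 3.41 and 3.22 CPM in J27a, against 4.99 and 7.12 CPM in J17b and 4.80, 4.35 and 5.19 CPM in J27b. All 7a libraries lay below 4 CPM, and J17b replicate 2, a library with high choroid plexus transcripts, was the highest. Without that library and J27b replicate 1 the difference was -0.54, against -0.67 with them. Hist1h1c, a linker histone, averaged 8.83 ± 1.34 CPM in 7a and 13.7 ± 2.39 CPM in 7b, a log2 difference of -0.62. Its replicates were uneven, with 6.78 CPM in J17a replicate 2 and 16.8 CPM in J27b replicate 1 at the ends.

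Htr2c (chrX:146962513-147197277), the serotonin 2C receptor, which is also abundant in choroid plexus, stood at 91.6, 92.4 and 93.8 CPM in J17a and 75.2, 77.2 and 69.2 CPM in J27a. In the 7b lines it stood at 105.2 and 101.5 CPM in J17b and 110.5, 88.2 and 113.1 CPM in J27b. The lines of 1 JNK gene did not overlap, but J27b replicate 2 lay below all J17a libraries. The log2 difference was -0.35 with all libraries and -0.34 without the 2 libraries high in choroid plexus transcripts. Tmem98, a membrane protein, had a log2 difference of -0.50, which was -0.38 without those 2 libraries. Ucp2, a mitochondrial carrier (-0.38), Timp3, an inhibitor of matrix metalloproteinases (-0.21), Maob, the monoamine oxidase of glia (-0.23), and Lgi3, a secreted neuronal protein (-0.21), had smaller differences. Tox3 (-0.43), Asb4 (-0.56), Adamtsl1 (-0.41) and Efhd1 (-0.31) were the rest. On the opposite strand, Dnajb13 overlaps Ucp2, Syn3 overlaps Timp3, Gm25811 overlaps Adamtsl1 and an antisense gene overlaps Efhd1.

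Gene lists of pathways were then described by their counts and medians, without a test, beside the median over all genes, which was within 0.01 of 0. Immediate early genes, which neurons switch on within minutes of firing, had the highest median of the pathway lists, at 0.46. Of 14 tested members, 13 had a positive difference, 7 were higher in 7a at an unadjusted p under 0.05, where 3.45% of all genes lay, and 0 lower. In 3 (Nr4a3, Egr3 and Ier5) the libraries did not overlap within either JNK gene, as in 0.74% of all genes. Egr3 averaged 181 ± 24.9 CPM in 7a and 130 ± 19.7 CPM in 7b. Ier5 averaged 73.4 ± 6.80 CPM in 7a and 53.4 ± 9.71 CPM in 7b, a log2 difference of 0.48, and Egr1 229 ± 44.6 CPM in 7a and 160 ± 16.2 CPM in 7b, a difference of 0.52. Egr1 overlapped: J27a replicate 1, at 168.1 CPM, was below 2 of the 7b libraries.

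The list's median over genes was 0.64 in the J1 lines and 0.31 in the J2 lines, and 11 members were positive in both. Its level, relative to the mean of the 11 libraries on the log2 scale, was uneven within J27a, at -0.20, -0.26 and 0.56. J27b stood at -0.27, -0.19 and -0.07, so J27a replicates 1 and 2 lay within the J27b range. The list level of the J2 lines was thus higher in 7a through J27a replicate 3, the library high in Gh. The part of that library's tissue content in this was not tested. Summed CPM of the list ran from 651 to 1049 in 7a and from 527 to 635 in 7b. Fos, the best known member, had 19.9 CPM in 7a and 15.1 CPM in 7b, a difference of 0.37 at an unadjusted p of 0.285, and Npas4 had 9.73 CPM in 7a and 9.23 CPM in 7b. These 2 were chosen after their values were seen. Of the 14, 10 were matched to a RefSeq window and 9 of these held the core TGACG, which 19.8% of 27025 genes held in a window. The 9 were Fos, Egr2, Egr4, Npas4, Nr4a1, Nr4a3, Junb, Dusp1 and Btg2. Egr3, Ier5 and Egr1 are not among the 9, but most or all of these had no matched window and were not searched. Whether the core goes with the size of the difference was not tested. The full site was in 2 of the 10, the AP-1 site in 0, the CArG box in 1 and the EGR site in 2.

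**Figure D4:**
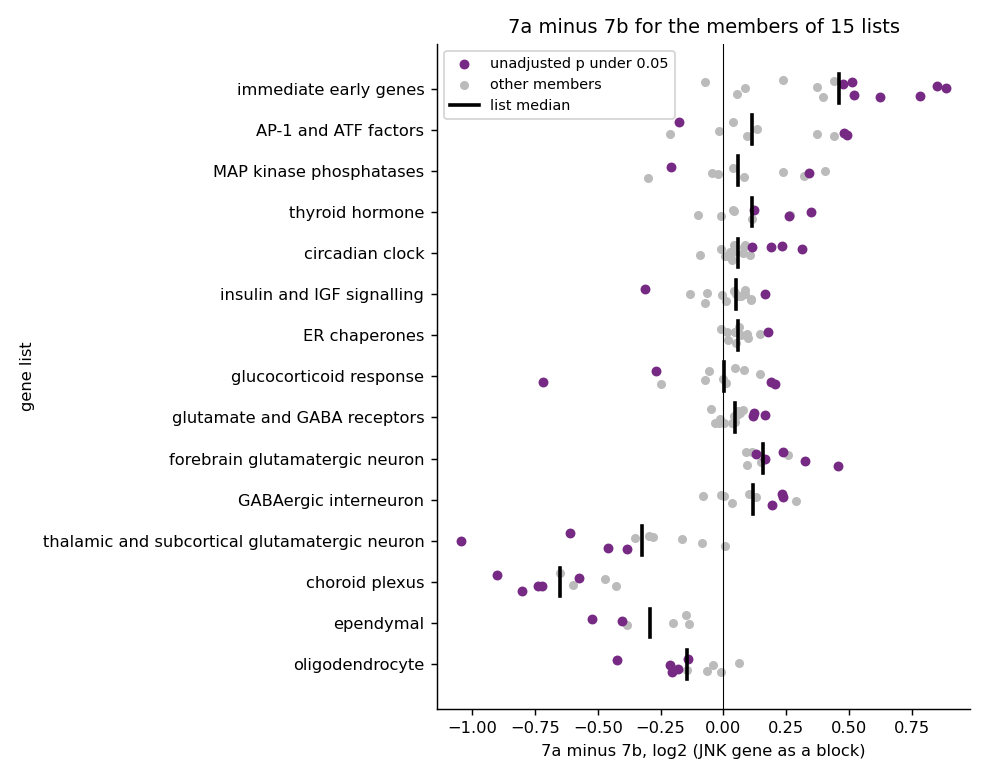
Log2 difference of 7a minus 7b (horizontal axis) for the tested members of 15 gene lists, purple where the unadjusted p was under 0.05 and grey otherwise, with the list median as a black bar. Immediate early genes lie mostly right of 0 (median 0.46), choroid plexus genes left of 0 (median -0.65), and the other pathway lists straddle 0.

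AP-1 and ATF factors, the classical targets of JNK, were mixed. Of 10 tested members, 7 were positive with a median of 0.11 (0.22 in the J1 lines and 0.10 in the J2 lines). Fosl2 and Fosb were higher in 7a at an unadjusted p under 0.05, where 3.45% of all genes lay. Fosb had 19.1 ± 4.20 CPM in 7a and 13.7 ± 2.15 CPM in 7b, a difference of 0.48. Jun itself ran the other way, with 53.7 ± 5.83 CPM in 7a and 60.9 ± 2.99 CPM in 7b, a difference of -0.18 (unadjusted p = 0.0215, adjusted p = 0.662 by edgeR). MAP kinase phosphatases, which switch MAP kinases off, had 6 of 10 positive and a median of 0.06 (0.08 in the J1 lines and 0.09 in the J2 lines). Dusp6, which acts on ERK, had a difference of 0.34, and Dusp16, which acts on JNK and p38, one of -0.21 with 18.9 ± 1.64 CPM in 7a and 21.7 ± 1.04 CPM in 7b.

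Genes of thyroid hormone handling had 7 of 9 positive and a median of 0.11 (0.15 in the J1 lines and 0.14 in the J2 lines). Beside Dio2, Crym, a cytosolic T3-binding protein, had 56.0 ± 2.88 CPM in 7a and 47.1 ± 6.02 CPM in 7b (difference 0.26), and Thra, the main T3 receptor of brain, 348 ± 8.56 CPM in 7a and 320 ± 20.6 CPM in 7b (0.12). Thra overlaps Nr1d1 on the opposite strand. The targets Klf9 and Hr, which T3 is known to raise, had differences of 0.04 and -0.01. Klf9 and Hr were named after their values were seen.

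Circadian clock genes had 14 of 16 positive, though with a median of only 0.06. There were 8 of 16 positive with a median of -0.01 in the J1 lines, 14 of 16 with a median of 0.11 in the J2 lines, and 7 positive in both, a contrast that was not tested. Per2, a clock repressor, stood at 45.5 ± 3.65 CPM in 7a and 36.5 ± 3.35 CPM in 7b (0.31), Bhlhe40 at 139 ± 9.34 CPM in 7a and 118 ± 9.72 CPM in 7b (0.23) and Per1 at 95.8 ± 9.77 CPM in 7a and 83.1 ± 8.47 CPM in 7b (0.19). Per1, Per2 and Bhlhe40 also respond to stimulation, and the labels give no time of day for dissection. Insulin and IGF signalling had 10 of 15 positive and a median of 0.05 (0.004 in the J1 lines and 0.05 in the J2 lines). Igfbp2, an IGF carrier that choroid plexus also makes, had a difference of -0.31, which was -0.17 without the 2 libraries high in choroid plexus transcripts, and Akt2 one of 0.16.

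ER chaperones, the folding proteins induced by ER stress, had 11 of 12 positive at a median of 0.06. At an unadjusted p under 0.05 there was 1 member, Dnajb11 (0.18), near the 6.59% of all genes. In the J1 lines 12 of 12 were positive with a median of 0.15, and in the J2 lines 5 of 12 with a median of -0.01, a contrast that was not tested for the list, and no member's interaction passed. Glucocorticoid response genes were split, 6 positive and 6 negative, with 4 of 12 positive in the J1 lines and 10 of 12 in the J2 lines. Plin4, a lipid droplet protein, had a difference of -0.72 with 15.9 ± 5.87 CPM in 7a and 26.3 ± 8.31 CPM in 7b. Mt1, a metallothionein, had one of -0.27, while Pdk4 had one of 0.21. The J1 difference was the larger in each: -1.21 against -0.31 in the J2 lines for Plin4, -0.56 against -0.03 for Mt1, and 0.39 against 0.06 for Pdk4. Glutamate and GABA receptor subunits had 11 of 15 positive and a median of 0.05, with 8 of 15 positive in the J1 lines and 14 of 15 in the J2 lines. The AMPA receptor gene Gria2 did not overlap within either JNK gene, with 515 ± 23.5 CPM in 7a and 472 ± 17.8 CPM in 7b, a difference of 0.12.

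Marker lists of brain cells and regions are given next, because RNA from brain tissue mixes them. In bulk samples, fewer cells of a type and less RNA per cell cannot be told apart. Markers of forebrain glutamatergic neurons had 10 of 10 positive and a median of 0.16, with 5 higher in 7a at an unadjusted p under 0.05, against 3.45% of all genes. The median was 0.16 in the J1 lines and 0.20 in the J2 lines. Neurod6, a cortical and hippocampal transcription factor, had 54.2 ± 3.30 CPM in 7a and 44.1 ± 8.76 CPM in 7b (0.33), and Fezf2, a factor of deep cortical layers, 21.1 ± 3.36 CPM in 7a and 15.8 ± 4.63 CPM in 7b (0.46). The list's summed level ran from 3860 to 4843 CPM in 7a and from 3372 to 4222 CPM in 7b, so the groups overlapped. GABAergic interneuron markers had 8 of 10 positive and a median of 0.12, but 5 of 10 and a median of -0.02 in the J1 lines, 8 of 10 and a median of 0.11 in the J2 lines, and 4 positive in both. By p, the first of them were Npy (0.23), Cck (0.24) and Lhx6 (0.19), while Vip had the largest difference (0.29, with -0.05 in the J1 lines and 0.56 in the J2 lines). Cck stood at 120.6 CPM in J17b replicate 2 and at 179 to 199 CPM in the other 7b libraries, and its difference was 0.12 without that library. Immediate early genes are expressed at high levels in the same forebrain neurons, and the part of these markers in their difference was not tested.

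Thalamic and subcortical glutamatergic markers had 9 of 10 negative and a median of -0.33, which was -0.13 in the J1 lines and -0.59 in the J2 lines. Gbx2, a thalamic homeobox factor, stood at 3.95, 2.64 and 2.32 CPM in J17a and 2.06, 2.89 and 2.01 CPM in J27a, against 1.93 and 3.4 CPM in J17b and 7.93, 8.80 and 8.87 CPM in J27b. Only J27b stood high among the 4 lines. Its difference passed the threshold in the J2 lines (log2 -1.88, adjusted p = 0.0045 by edgeR), was 0.16 in the J1 lines, and the test between these gave an adjusted p of 0.0886. It was the 1 gene called in the J2 lines (0.00632%), beside 1169 genes at an unadjusted p under 0.05. It was not called without J27a replicate 1, without J27a replicate 3 or without J27b replicate 3. Tcf7l2, Slc17a6 (the glutamate transporter VGLUT2) and Ntng1 had shared differences of -0.61, -0.46 and -0.38, and all 3 were highest in J27b.

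All 9 choroid plexus markers and all 6 ependymal markers had negative differences, with medians of -0.65 and -0.29. In the J1 lines these medians were -0.57 and -0.18, and in the J2 lines -0.79 and -0.40. The choroid plexus makes cerebrospinal fluid, and ependymal cells line the ventricles. Ttr stood at 544, 616 and 456 CPM in J17a and 362, 402 and 406 CPM in J27a, against 500 and 1382 CPM in J17b and 1297, 400 and 612 CPM in J27b. Only 2 of the 5 libraries of the 7b lines were high. Without them the difference of Ttr was -0.20, against -0.90 with them, and that of Folr1 was -0.28, against -0.72. Foxj1, the factor of motile cilia in ependymal cells, had -0.52 without the 2 libraries and -0.40 with them, at 9.80 ± 1.55 CPM in 7a and 12.8 ± 1.60 CPM in 7b.

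Oligodendrocyte markers had 9 of 10 negative and a median of -0.14. The median was 0.02 in the J1 lines (7 of 10 positive) and -0.26 in the J2 lines (0 of 10 positive), a contrast that was not tested for the list. Opalin, a protein of mature oligodendrocytes, had 12.7 ± 2.26 CPM in 7a and 16.9 ± 1.18 CPM in 7b (-0.42), and Cldn11, a myelin tight junction protein, 137 ± 13.8 CPM in 7a and 154 ± 3.17 CPM in 7b (-0.18). Hox genes, which mark hindbrain, had 11 of 11 negative at a median of -0.74, yet 0.04 in the J1 lines and -1.28 in the J2 lines. Cerebellar markers had medians of -0.48 in the J1 lines and 0.64 in the J2 lines. Astrocyte markers (median 0.003), microglial markers (0.05) and meningeal fibroblast markers (-0.03) lay near 0. Of the list genes named, Jun, Dusp1, Dusp16, Bhlhe40, Dnajb11, Plin4, Gbx2, Ntng1 and Folr1 also overlap an annotated gene on the opposite strand, as does Mapk8.

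**Figure D5:**
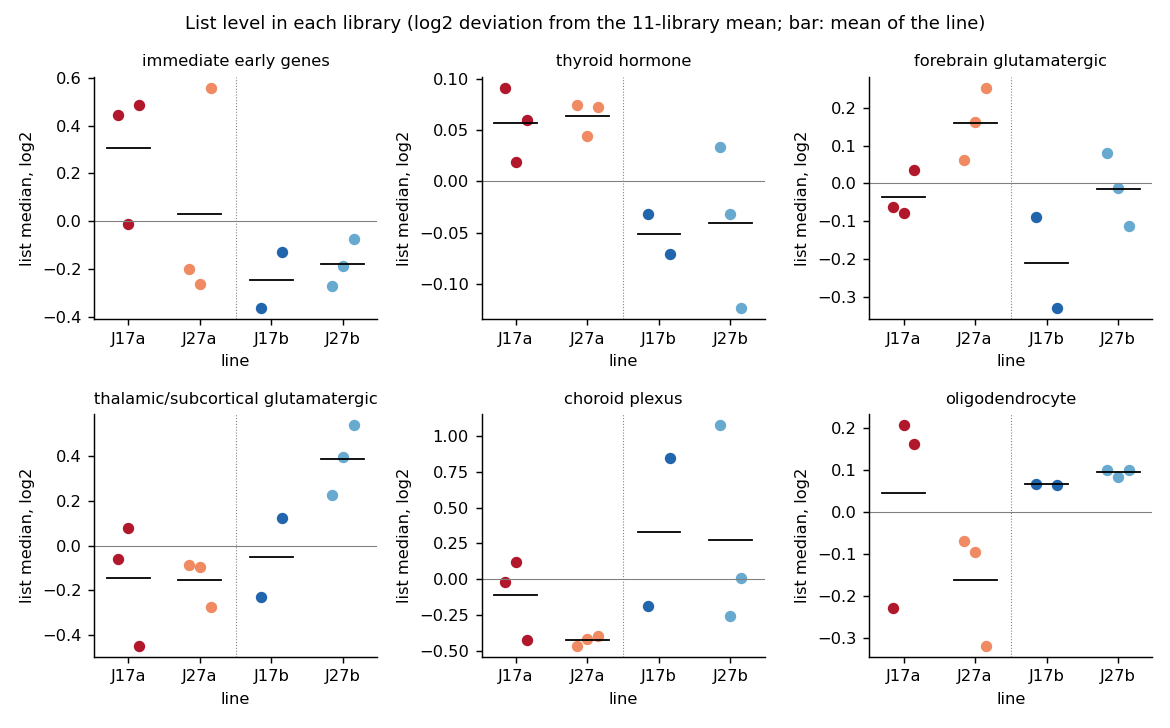
Level of 6 gene lists in each library (points), as the median over members of log2 CPM minus the mean of the 11 libraries, for the J17a, J27a, J17b and J27b lines, with the mean of each line as a bar. Immediate early genes and forebrain markers overlap between 7a and 7b libraries, thalamic markers are high in J27b, choroid plexus markers are high in 1 J17b and 1 J27b library, and the vertical axes differ between panels.

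The J1 and J2 differences were compared by an interaction test. It called 1 gene (0.00632%), Ide, the insulin-degrading enzyme, with 1375 genes (8.7%) at an unadjusted p under 0.05. Ide (chr19:37268743-37337852) stood at 78.3, 90.2 and 84.3 CPM in J17a and 87.3, 82.1 and 86.9 CPM in J27a, against 51.6 and 60.9 CPM in J17b and 111.0, 105.1 and 109.3 CPM in J27b. The 7a lines were alike, while J17b lay below them and J27b above. The J1 difference was 0.58 and the J2 difference -0.34, and they differed by 0.93 (95% interval 0.70 to 1.16, adjusted p = 0.00156 by edgeR), so the shared difference of 0.05 averages opposite values. Ide was called when any 1 of the 11 libraries was left out, and limma on log2(TPM + 1) called 0 genes. On the scale of all 20 libraries, Ide averaged 85.6 CPM in 7a and 88.4 CPM in 7b, beside 55.6 ± 1.93 CPM in J1 lf/lf, 101 ± 17.3 CPM in J2 lf/lf and 109 ± 4.13 CPM in Wild type.

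Btaf1, a TATA-binding protein factor on the same chromosome (chr19:36926079-37012752), had a like pattern with 0.48 in the J1 lines and -0.18 in the J2 lines, though its interaction missed the threshold (adjusted p = 0.0571 by edgeR). It averaged 40.95 CPM in J17b and 63.1 CPM in J27b. On the scale of all 20 libraries it averaged 40.8 ± 3.74 CPM in J1 lf/lf, 65.3 ± 11.4 CPM in J2 lf/lf and 65.5 ± 2.95 CPM in Wild type. Within the J1 lines alone, 11 genes passed (0.0696%), 8 higher in J17a and 3 lower. Of the higher ones, Fosl2, Nr4a3, Oprd1, Ier5, Mapk8 and Dnajb5 had positive J2 differences, as had 7772 of all 15813 tested genes. These were smaller than the J1 differences (0.23 against 0.81 for Ier5), and none passed the threshold in the J2 lines. In Mapk8 the lowest J27a library (110.7 CPM) and the highest J27b library (110.1 CPM) nearly met. Ide and Btaf1 were also higher in J17a, with negative J2 differences. Those lower in J17a were Mt1 (-0.56), Fmo2 (-1.55) and 1700047I17Rik2 (-0.47), of which Fmo2 had a J2 difference of 0.72. The J1 count was 20 without J17a replicate 2, 6 without J17a replicate 3, 70 without J17b replicate 1 and 3 without J17b replicate 2. J17b has only 2 libraries, and with 1 left out the lone library was assumed to vary like the other lines.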

How the data were processed

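DNase-treated brain RNA was enriched for poly(A) and read as 150 bp pairs on a NovaSeq6000, per the labels' protocols. The authors deposited estimated counts from RSEM after cutadapt on mm10, per the submitters' processing notes, and the TPM the authors deposited are length-scaled abundances for the same libraries. Versions, annotation and strand use are not stated there.

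Counts of 23845 genes (4.11% not whole) were rounded and fitted with edgeR 4.0.16 in R 4.3.3 on 11 libraries: TMM factors 0.987 to 1.01, filterByExpr by line (15813 genes kept), robust quasi-likelihood with JNK gene and form as terms, two-sided tests, Benjamini-Hochberg threshold 0.05. Fold changes are 7a over 7b. A fit with 4 line means gave the J1 and J2 differences and their interaction. The biological coefficient of variation was 0.106. Of 42 gene lists, 15 are described in full, and up to 4 members of each with the lowest p are named beside the 24 genes and the JNK genes. The comparison, lists and rules were chosen with earlier results of these data known. Other members were named after their values were seen. On simulated counts 3.26% of the fit's calls were false. No replicate pair differed as little as sampling noise. Alternatives used DESeq2 1.42.0, limma 3.58.1 and sva 3.50.0.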

Additional observations from a re-analysis of the deposited data

Results flagged for a closer look

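Ide differed between the JNK genes by the interaction test: the 7a minus 7b difference of the J1 lines exceeded that of the J2 lines by 0.93 on the log2 scale, with 78.3 to 90.2 CPM in J17a against 51.6 and 60.9 CPM in J17b, and 82.1 to 87.3 CPM in J27a against 105.1 to 111.0 CPM in J27b.

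The summed level of the forebrain glutamatergic markers was 3372 CPM in J17b replicate 2, far from the other 7b libraries, which held 3993 to 4222 CPM. That library also had the highest Ttr (1382 CPM) and Rn45s (54010 CPM) of the 11, and the part of either in this value was not tested. It was the 1 value that stood apart among 84 sets of library values examined, where chance alone marks about 1 in 20.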

How the results depend on the processing

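The count of genes called between 7a and 7b lines, 0 by edgeR, was 0 with DESeq2 size factors, all 20 libraries, the replicate block, either TPM pseudocount, Rn45s left out, or the 2 libraries with the highest choroid plexus transcripts left out (a choice made after seeing the data). It was 3 with no filter on low counts (Dio2, Nr4a3 and Homer1), 38 with the DESeq2 Wald test, 6 with 4 line means and 58 with 2 surrogate variables. With each library left out in turn it ran from 0 to 4. It was 1 (Shox2, lower in 7a) without J17a replicate 2 and 4 (Egr3, Homer1, Dio2 and Fosl2) without J27a replicate 2. The 24 named genes had the same direction in 528 of 528 alternative values, and 22 of the 24 were called in at least 1. They were chosen from these same libraries for low p and separation. The sameness of direction therefore follows largely from the choice, and neither count is independent support.

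Within the J1 lines the 11 calls became 68 with DESeq2 and 0 with all 20 libraries or limma on log2(TPM + 1), and ran from 3 to 70 with a library left out. Within the J2 lines the 1 call became 2 with no filter, 51 with DESeq2, and 0 with all 20 libraries or limma, and ran from 0 to 6. The interaction's 1 call became 6 with no filter, 46 with DESeq2 and 0 with limma, and ran from 1 to 73. The causes were not tested. The shared difference of Ide, 0.05, ran from -0.10 to 0.13 with a library left out and was negative without J17a replicate 2 (-0.0034), J17b replicate 1 (-0.10) or J17b replicate 2 (-0.03), none past the threshold.

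Correlations of the deviations of same-numbered libraries ran from -0.089 to 0.0693 in 15 pairs, against -0.125 to 0.125 in 30 others. Deviations were taken from each line's mean, so the 2 J17b libraries mirror each other and the pairs are not separate values. The comparison therefore cannot settle pairing, and the numbers are not taken to pair samples. With the replicate block the counts were 0 for 7a against 7b, 8 in the J1 lines, 6 in the J2 lines and 1 for the interaction. With 2 J17b libraries, differences near 1.2-fold would mostly be missed at this depth and spread.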

Other observations

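Anterior pituitary transcripts differed by library and not by line. Gh stood at 11.3, 0 and 0 CPM in J17a and 12.8, 0.075 and 454.8 CPM in J27a, against 0 and 8.38 CPM in J17b and 0.0326, 0.232 and 0.519 CPM in J27b. Striatal projection neuron markers had a shared median of -0.01, with 10 of 10 positive in the J1 lines (median 0.18) and 0 of 10 in the J2 lines (median -0.14), and their summed level ran from 800 to 1724 CPM in 7a and from 811 to 1150 CPM in 7b. Nuclear-encoded respiratory chain subunits had 16 of 22 positive in the J1 lines (median 0.04) and 0 of 22 in the J2 lines (median -0.08). Cytosolic and mitochondrial heat shock proteins had 10 of 10 positive in the J1 lines (median 0.12) and 1 of 10 in the J2 lines (median -0.08). Cholesterol synthesis genes had 15 of 18 positive in the J1 lines (median 0.10) and 2 of 18 in the J2 lines (median -0.10). For none of these lists was the contrast between the J1 and J2 lines tested, and members of a list share libraries and are not replicates.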
